A study of Mus musculus with 27 samples.

Results

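The Cdh1-low and Cdh1-high states were compared among the deltaHD1 lines (here written dHD1), which are 4 cell lines grown from mammary tumours of mice. The lines were selected on their untreated libraries. A line was Cdh1-low when Cdh1 (E-cadherin) was under 1 CPM, where CPM scales the reads of each gene to a common library total, and Cdh1-high when it was over 100 CPM. This rule put dHD1/fl line 2 and dHD1/- line 2 on the Cdh1-low side and dHD1/fl line 1 and dHD1/- line 1 on the Cdh1-high side, so that 2 lines stood on each side and all 4 untreated dHD1 libraries of the 27 libraries of the series had a side. The value nearest to the lower limit was 0.522 CPM in dHD1/fl line 2, and the value nearest to the upper limit was 606 CPM in dHD1/fl line 1. No dHD1 library lay between them, and the 5 untreated dHD2 libraries held 682 to 1145 CPM of Cdh1.

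All lines came from mammary tumours of MMTV-PyMT mice (FVB/N), in which a mammary tumour virus promoter drives the polyoma middle T oncogene in mammary epithelium. Bcl9 and Bcl9L are coactivators whose HD1 domain binds Pygopus and whose HD2 domain binds β-catenin. dHD1/fl and dHD2/fl lines carried a deltaHD1 or deltaHD2 allele of Bcl9/Bcl9L beside a floxed allele, and in dHD1/- and dHD2/- lines the floxed allele had been recombined by an adenovirus expressing Cre. Each library was RNA from 1 line kept for 4 days without cytokine, for 3 days with Wnt3a (100 ng/ml) or for 4 days with TGFβ (2 ng/ml). Lines of 1 genotype came from different mice per the labels, and whether a recombined line derived from the fl line of the same number is not given there. The dHD1 lines of a side have the same number, so they may share an origin, while the tests count them as separate lines. Fibroblasts had been removed from the cultures by differential trypsinization before the lines were established.

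In an epithelial to mesenchymal transition, EMT, epithelial cells dismantle adherens junctions, tight junctions and desmosomes, exchange keratin for vimentin filaments and produce interstitial matrix. The transcription factors of the Snail, Zeb and Twist families repress E-cadherin and other junction genes through E-boxes, while Grhl and Ovol factors and the Esrp splicing regulators maintain the epithelial state. Mammary tumours and the lines derived from them can hold cells at any step between these states, and TGFβ is the cytokine most used to drive the transition in culture.

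The promoters of 4 junction and epithelial factor genes that were lower in the Cdh1-low lines are shown because these genes moved together and because CAGGTG is an E-box that Snail and Zeb factors are known to bind. Each window is RefSeq sequence of GRCm38.p6 from 250 bases before to 50 bases after an annotated start, printed on the strand of the gene. Capitals mark CAGGTG or its complement CACCTG, and the AP-1 motif TGANTCA.
Cldn4 chr5:134946885-134947184 (-): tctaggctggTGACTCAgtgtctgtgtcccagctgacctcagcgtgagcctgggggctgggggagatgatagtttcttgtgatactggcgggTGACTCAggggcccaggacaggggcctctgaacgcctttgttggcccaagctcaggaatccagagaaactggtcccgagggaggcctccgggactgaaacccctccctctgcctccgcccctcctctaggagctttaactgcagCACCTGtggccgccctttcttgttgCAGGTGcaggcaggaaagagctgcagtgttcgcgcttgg
Epcam chr17:87635729-87636028 (+): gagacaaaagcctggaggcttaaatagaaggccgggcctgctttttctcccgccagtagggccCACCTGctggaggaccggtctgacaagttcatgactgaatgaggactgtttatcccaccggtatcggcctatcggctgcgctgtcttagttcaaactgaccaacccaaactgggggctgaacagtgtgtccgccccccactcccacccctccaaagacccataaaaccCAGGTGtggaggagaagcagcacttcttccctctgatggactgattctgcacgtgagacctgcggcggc
Lsr chr7:30973420-30973719 (-): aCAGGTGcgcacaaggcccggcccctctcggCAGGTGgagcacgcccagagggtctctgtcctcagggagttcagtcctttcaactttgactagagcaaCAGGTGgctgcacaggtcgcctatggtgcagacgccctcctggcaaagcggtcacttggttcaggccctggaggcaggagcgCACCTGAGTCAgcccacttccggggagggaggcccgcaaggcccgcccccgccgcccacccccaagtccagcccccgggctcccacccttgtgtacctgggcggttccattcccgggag
Spint2 chr7:29281928-29282227 (-): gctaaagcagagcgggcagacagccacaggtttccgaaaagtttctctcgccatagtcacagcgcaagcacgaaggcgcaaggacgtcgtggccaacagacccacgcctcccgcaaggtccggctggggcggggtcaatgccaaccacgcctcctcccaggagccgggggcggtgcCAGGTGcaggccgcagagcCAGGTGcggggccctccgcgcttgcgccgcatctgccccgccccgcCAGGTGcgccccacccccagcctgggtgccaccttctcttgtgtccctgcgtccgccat
Epcam encodes the epithelial cell adhesion molecule, Cldn4 the barrier protein claudin 4, Lsr the angulin of tricellular tight junctions, and Spint2 an inhibitor of membrane serine proteases such as matriptase. CAGGTG or its complement lay at -14 and 12 from the start of Cldn4, at -187 and -19 in Epcam, at -249, -219, -151 and -69 in Lsr, and at -74, -55 and -9 in Spint2. TGANTCA lay at -240 and -158 in Cldn4 and at -65 in Lsr, where it overlaps the E-box in part. The Grhl motif AACNGGTT had no match in these 4 windows. Over all genes tested 2406 of 13353 promoters held CAGGTG on either strand, and 20.2% of all 32851 promoters of the table did. Among 415 promoters of genes called lower in the Cdh1-low lines under Wnt3a the share was 36.6%, and among 372 promoters of genes called higher it was 16.4% (called here means an adjusted limma p of at most 0.05 and a difference of at least 2-fold). Counted by gene, 45.8% of 295 genes called lower held the motif in at least 1 promoter, against 20.9% of 10461 genes tested. The share with TGANTCA was 9.88% against 5.63% of promoters of all genes tested, and with AACNGGTT it was 2.89% against 1.81%. Under TGFβ CAGGTG was in 37.8% of 98 promoters of genes called lower and 22.7% of 110 of genes called higher, so that both shares exceeded that over all genes tested, and TGANTCA was in 9.18% and 11.8%. AACNGGTT was in 6.12% of the promoters of genes called lower under TGFβ (6 promoters) and 2.73% of those called higher. For genes called under both cytokines the CAGGTG shares were 46.6% and 24.7%, and the AACNGGTT shares 8.22% (6 promoters) and 1.37%. For the Wnt3a calls, median GC content was 59.7% in the promoters of genes called lower and 60.7% in all genes tested. These matches describe letters in a window and were not tested as binding sites.

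The dHD1 libraries ranged from 21.9 M to 33.7 M reads. A floor of 3 reads, which is what a count of 0 still allows, was 0.0890 to 0.137 CPM at these depths and reflects counting error alone. Of 24454 genes listed, 13270 reached at least 1 CPM in at least 2 libraries and were tested. A gene near 0 in the lines of 1 state can pass this filter through the other state alone. Differences are log2(CPM + 1) values with their standard error (SE), and for genes of low level this scale gives a smaller difference than the ratio of CPM. Calls required a limma p of at most 0.05 after Benjamini-Hochberg adjustment over all genes tested, with a difference of at least 1. Differences between the states were tested only in the Wnt3a and TGFβ libraries, which the selection did not use. These are libraries of the same 4 lines and not of new lines. In bulk RNA, fewer cells of a type and less RNA per cell cannot be told apart. Across the 13270 genes, untreated lines of the same state correlated at 0.915 (Cdh1-high) and 0.949 (Cdh1-low), and lines of the same genotype at 0.861 (dHD1/fl) and 0.885 (dHD1/-), as a description of libraries that share a platform. dHD1/- line 1 and dHD1/fl line 2, which share neither state nor genotype, correlated at 0.900 untreated, 0.904 with Wnt3a and 0.924 with TGFβ, and with either cytokine this exceeded the correlation between the Cdh1-high lines (0.886 and 0.899). dHD2/- lines 2 and 3 correlated at 0.993 to 0.997, above the 0.884 to 0.957 of the other dHD2 pairs of 1 genotype, and that they are independent was not shown.

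The epithelial label of the cultures was set against 10 epithelial markers fixed with the gene lists. In the untreated Cdh1-high lines, 7 and 8 of these markers reached 10 CPM, with summed levels of 6703 CPM in dHD1/fl line 1 and 4804 CPM in dHD1/- line 1. In the Cdh1-low lines, 1 and 2 markers did, with sums of 358 CPM in dHD1/fl line 2 and 1316 CPM in dHD1/- line 2. Of 5 mesenchymal markers, 3 and 5 reached 10 CPM in the Cdh1-high lines and all 5 in each Cdh1-low line. Their sums were 6715 and 11775 CPM in the Cdh1-high lines and 18159.8 and 12390.1 CPM in the Cdh1-low lines, so that the dHD1/- pair was nearly equal.

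**Figure D1:**
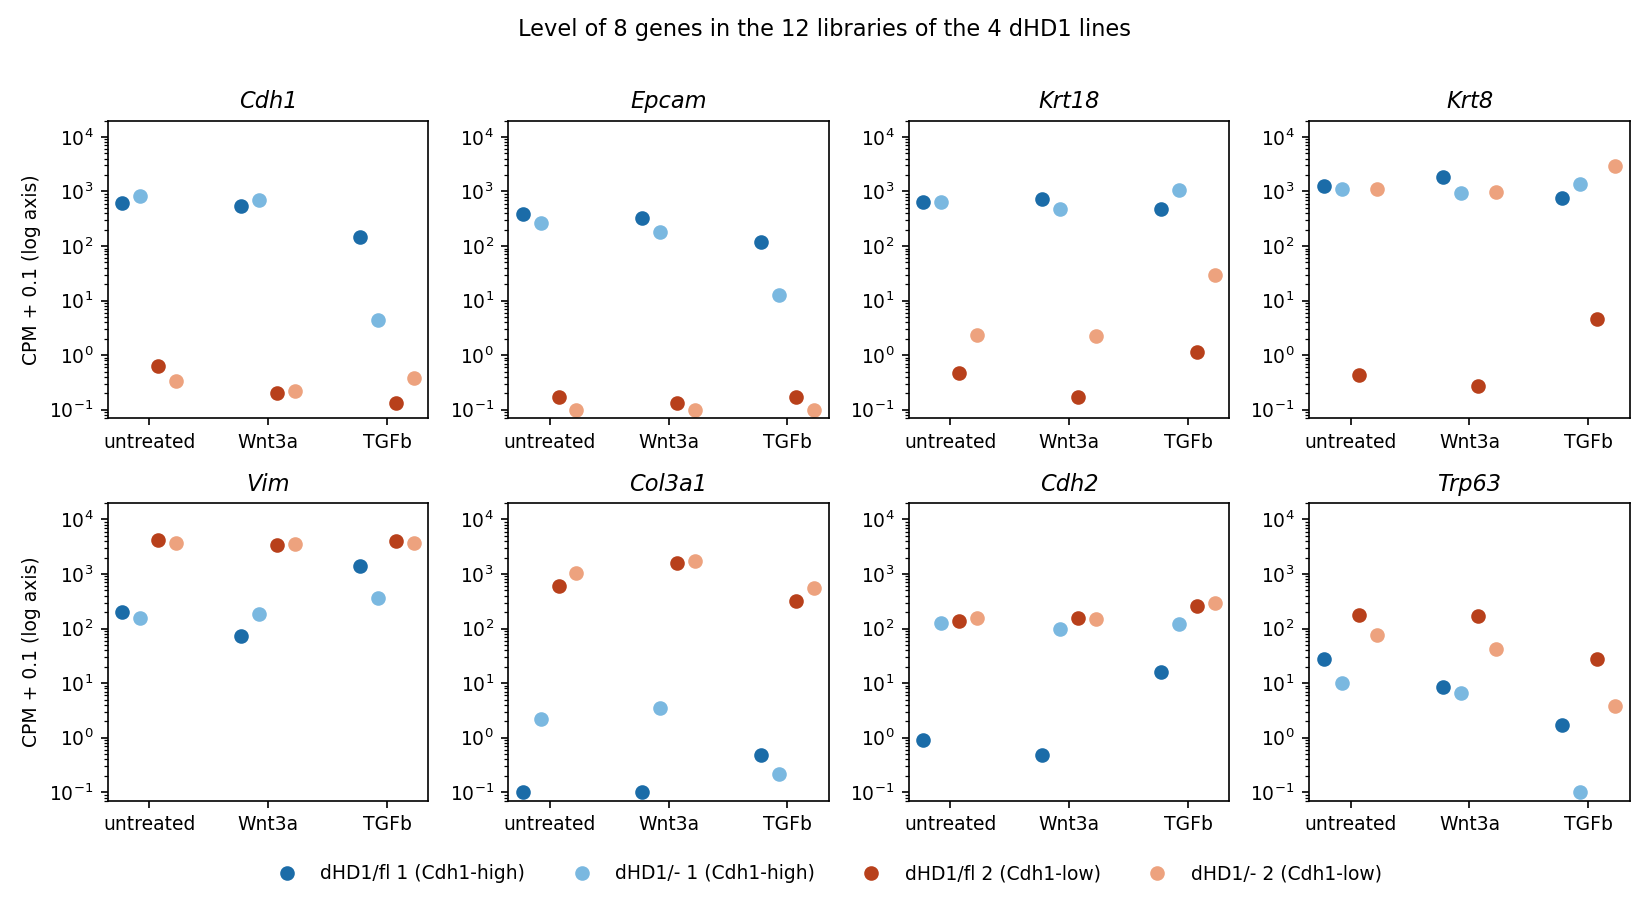
Level of 8 genes (CPM + 0.1, log axis) in the 12 dHD1 libraries by treatment, each point 1 library. Cdh1 and Epcam were under 1 CPM in every library of the Cdh1-low lines, while Krt8 was low in dHD1/fl line 2 alone and Cdh2 was low in dHD1/fl line 1 alone.

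In the untreated libraries, which chose the lines, the values are a description without a test. Vim, encoding the intermediate filament protein vimentin, was at 198 CPM in dHD1/fl line 1 and 156 CPM in dHD1/- line 1, and at 4188 CPM in dHD1/fl line 2 and 3678 CPM in dHD1/- line 2. Epcam was at 389.7 and 263 CPM in the Cdh1-high lines and at 0.0746 and 0 CPM in the Cdh1-low lines. Counting genes that differed at least 2-fold in the same direction in the dHD1/fl pair and in the dHD1/- pair, 506 genes were higher (3.81% of genes tested) and 600 lower (4.52%) in the Cdh1-low lines. Of 22 tight junction and polarity genes 15 were lower in this sense and none higher, of 26 epithelial transcription and splicing factors 18 were lower and 1 higher, and of 28 collagen and matrix genes 10 were higher and 1 lower.

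Under Wnt3a the states remained apart in Cdh1 itself. Cdh1 (GRCm38 chromosome 8, 106603350 to 106670247) was at 544 CPM in dHD1/fl line 1 and 710.4 CPM in dHD1/- line 1, and at 0.107 CPM in dHD1/fl line 2 and 0.121 CPM in dHD1/- line 2. The Cdh1-low libraries thus lay near the floor of 3 reads, and the groups did not overlap. The difference was -9.13 ± 0.77 (SE; limma adjusted p 9.57e-06). Cdh1 of these same lines had set the sides, so its p-values under Wnt3a and TGFβ are no evidence apart from the selection. Over all genes 385 were called higher (2.90% of genes tested) and 392 lower (2.95%) in the Cdh1-low lines, with a median difference of 0.04.

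Under TGFβ the gap in Cdh1 was smaller and came from the Cdh1-high side. Cdh1 was at 148 CPM in dHD1/fl line 1 and 4.29 CPM in dHD1/- line 1, and at 0.0355 and 0.288 CPM in the Cdh1-low lines. The groups again did not overlap, and the difference was -4.60 ± 0.77 (SE; limma adjusted p 0.00587). It moved between -7.17 and -2.04 when a line was left out. In these libraries 120 genes were called higher (0.904% of genes tested) and 96 lower (0.723%). Called under both cytokines in the same direction were 79 genes higher (0.595%) and 78 lower (0.588%).

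These calls rest on the spread between lines of all genotypes, since 4 dHD1 lines leave few degrees of freedom. With the dHD1 libraries alone, which leave 2 residual degrees of freedom against 11 in the whole fit, limma called 0 genes under Wnt3a (1284 at an unadjusted p under 0.05) and 0 under TGFβ (640). Leaving out dHD2/- line 2 or 3 gave 425 or 461 calls under Wnt3a and 115 or 107 under TGFβ. Leaving out dHD2/- line 1 gave 1188 and 393, and leaving out a line of the dHD1/- pair gave 1883 or 1879 under Wnt3a and 451 or 450 under TGFβ. Leaving out a line of the dHD1/fl pair gave 590 calls under Wnt3a, and 757 or 756 under TGFβ. edgeR's quasi-likelihood test on recovered reads called 94 genes higher and 357 lower under Wnt3a, and 9 higher and 100 lower under TGFβ.

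Vim did not pass the test outside the selecting libraries, although its groups did not overlap. Under Wnt3a it was at 74.0 and 184 CPM in the Cdh1-high lines and at 3467 and 3524 CPM in the Cdh1-low lines. The difference was 4.89 ± 3.16 (SE; limma adjusted p 0.398), and the 5 dHD2 lines ranged from 1.61 to 643 CPM under the same cytokine. Under TGFβ Vim was at 1424 and 369 CPM in the Cdh1-high lines and at 3986 and 3742 CPM in the Cdh1-low lines, a difference of 2.41 ± 3.16 (SE; adjusted p 0.826).

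**Figure D2:**
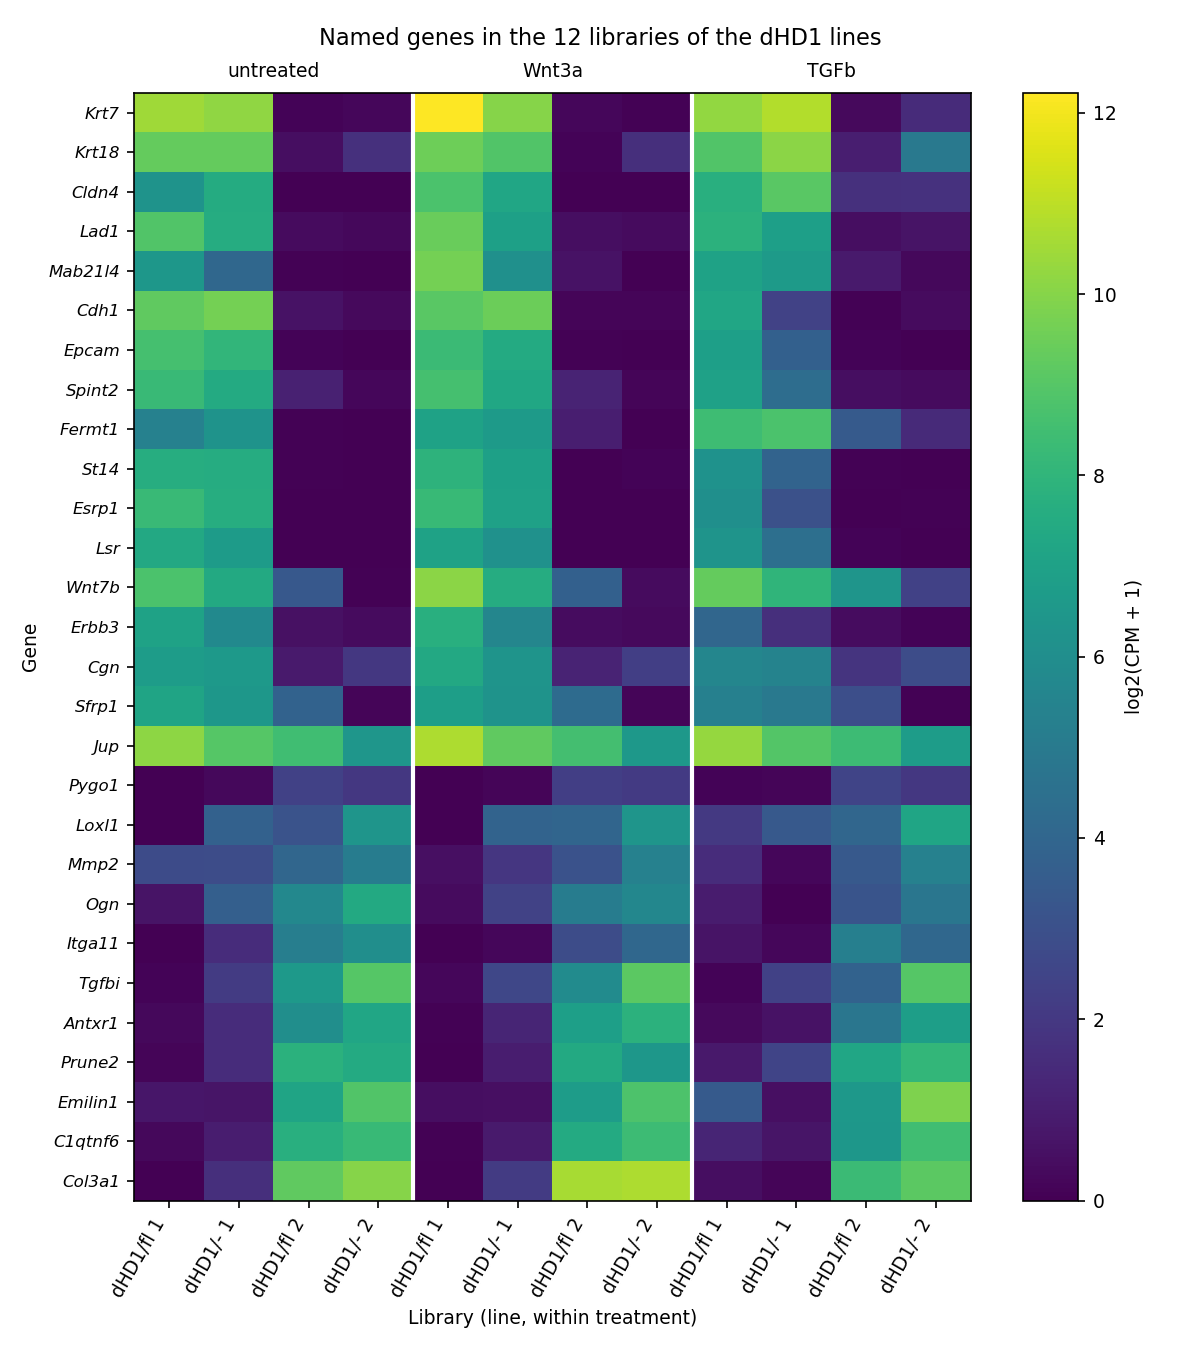
log2(CPM + 1) of 28 genes named by the rule in the 12 dHD1 libraries, with lines as columns within each treatment and genes as rows ordered by the mean of the Wnt3a and TGFβ differences. The upper 17 rows, from Krt7 to Jup, were lower in the Cdh1-low lines under both cytokines and the lower 11 rows, from Pygo1 to Col3a1, were higher.

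Genes of the adherens junction, which couples cadherins to actin through catenins, differed in a minority. Of 13 members tested of 16 listed, 3 were called lower and 1 higher under Wnt3a, with a list median of -0.38. The shares over all genes tested were 2.95% and 2.90%. Nectin4, an immunoglobulin-like adhesion molecule, was at 187 and 16.0 CPM in the Cdh1-high lines and at 0.355 and 0.121 CPM in the Cdh1-low lines, a difference of -5.52 ± 0.87 (SE; limma adjusted p 0.00175). Cdh2, encoding N-cadherin, was the 1 called higher, at 3.75 ± 0.98 (SE; adjusted p 0.0364). Leaving out any line outside the dHD1/- pair left no member of the list called higher, and without a line of the dHD1/fl pair 1 was called lower. The levels of Cdh2 were 0.380 CPM in dHD1/fl line 1, 96.1 CPM in dHD1/- line 1, and 157 and 152 CPM in the Cdh1-low lines. The low library was dHD1/fl line 1 only, while dHD1/- line 1 and the 5 dHD2 lines (117 to 163 CPM of Cdh2, 534 to 1189 CPM of Cdh1) held both cadherins. Under TGFβ only Cdh1 of this list was called.

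Tight junction and polarity genes had the largest share of calls under Wnt3a among the lists. Of 22 members tested of 23 listed, 13 were called lower and none higher under Wnt3a, and 6 lower and none higher under TGFβ. The list medians were -3.49 and -0.93, and with members at 0 placed at their bound they were -3.69 and -1.25, against medians of 0.04 and 0.00 over all genes tested. Without a line of the dHD1/fl pair 8 were called under Wnt3a, and without dHD2/- line 2 or 3 the TGFβ count was 4. Epcam (chromosome 17, 87635979 to 87651127) was at 322 and 179 CPM in the Cdh1-high lines under Wnt3a and at 0.0355 and 0 CPM in the Cdh1-low lines, a difference of -7.89 ± 0.54 (SE; limma adjusted p 1.83e-06). Under TGFβ it was at 117 and 12.5 CPM against 0.0710 and 0 CPM (-5.27 ± 0.54, adjusted p 0.000102).

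Cldn4 (chromosome 5, 134945123 to 134946934) had no read in either Cdh1-low line under Wnt3a, against 435 and 147 CPM in the Cdh1-high lines. Against a floor of 3 reads per library it was at least 2397-fold lower. With TGFβ it was at 2.24 and 2.30 CPM in the Cdh1-low lines and at 206 and 554 CPM in the Cdh1-high lines, and the fitted differences were -7.99 ± 1.51 (adjusted p 0.00619) and -6.70 ± 1.51 (adjusted p 0.0414). In dHD1/- line 1 the TGFβ library thus held 554 CPM of Cldn4 beside 4.29 CPM of Cdh1. Leaving out a line of the dHD1/fl pair ended the Wnt3a call (-7.21, adjusted p 0.122 and 0.121), and leaving out any line but dHD2/- line 1 ended the TGFβ call (adjusted p 0.0906 to 0.202).

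Lsr (chromosome 7, 30957770 to 30973469) was at 133 and 70.6 CPM in the Cdh1-high lines under Wnt3a and had no read in the Cdh1-low lines, at least 837-fold lower. With TGFβ it was at 80.4 and 21.0 CPM against 0.0710 and 0 CPM, a difference of -5.35 ± 0.36 (SE; adjusted p 3.83e-06). Cgn, encoding the cytoplasmic plaque protein cingulin, was at 167 and 79.3 CPM against 1.35 and 3.89 CPM under Wnt3a, a difference of -5.10 ± 0.44 (SE; adjusted p 1.29e-05). It stayed apart under TGFβ at 47.6 and 43.6 CPM against 2.56 and 6.26 CPM (-3.20 ± 0.44, adjusted p 0.0013). Ocln (occludin) was called under Wnt3a only, at 9.26 and 20.1 CPM against 0 and 0.0405 CPM, with a difference of -3.85. Under TGFβ it was at 0.631 and 0.278 CPM in the Cdh1-high lines and had no read in the Cdh1-low lines.

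Some junction genes varied between lines without following the states. Cldn7 (claudin 7) was at 45.1 CPM in untreated dHD1/- line 1 and at 0.0915, 0.261 and 0.237 CPM in the other untreated dHD1 lines. Cldn3 followed the states in the dHD1 lines, with 256 and 179 CPM against no read under Wnt3a, yet it was not called (-7.75 ± 3.39, adjusted p 0.199) and ranged from 0 to 438 CPM over the dHD2 lines.

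Desmosomes anchor keratin filaments at cell contacts. Of 14 members tested of 15 listed, 6 were called lower under Wnt3a and 1 under TGFβ, with none higher and list medians of -2.38 and -0.23. Without dHD2/- line 2 or 3 the Wnt3a count was 4, and without a line of the dHD1/- pair the TGFβ counts were 2 lower and 1 higher. Jup, encoding plakoglobin, was called under both cytokines but remained at a high level in every line. Under Wnt3a it was at 1665 and 593 CPM in the Cdh1-high lines and at 378 and 90.0 CPM in the Cdh1-low lines (-2.42 ± 0.30, adjusted p 0.00027). Evpl, encoding the cornified envelope plakin envoplakin, was at 933 and 50.4 CPM against 0.320 and 0.486 CPM under Wnt3a (-7.29 ± 0.94, adjusted p 0.000334). Under TGFβ its Cdh1-high levels were 7.06 and 1.55 CPM and it was not called.

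Keratins divided by gene. Of 6 keratins of simple epithelia tested of 7 listed, 3 were called lower under Wnt3a and 2 under TGFβ, with none higher. Without a line of the dHD1/fl pair, a dHD2/fl line or dHD2/- line 3, none was called lower under TGFβ, and edgeR called 3 under Wnt3a and none under TGFβ. Krt7 (chromosome 15, 101412403 to 101427806) was at 4768 and 1017 CPM in the Cdh1-high lines under Wnt3a and at 0.142 and 0.0405 CPM in the Cdh1-low lines, a difference of -10.98 ± 1.89 (SE; adjusted p 0.0031). Under TGFβ it was at 1189 and 1812 CPM against 0.249 and 1.84 CPM (-9.61 ± 1.89, adjusted p 0.0171). The Wnt3a call of Krt7 ended without a line of the dHD1/fl pair (-9.93, adjusted p 0.0872 and 0.0867). Krt18 was at 740.3 and 474 CPM against 0.0710 and 2.11 CPM under Wnt3a (-8.35 ± 1.25, adjusted p 0.00113), and its TGFβ levels in the Cdh1-low lines were 1.03 and 29.2 CPM.

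Krt8, whose protein pairs with keratin 18 in filaments, did not follow the states. It was at 1821 and 925 CPM in the Cdh1-high lines under Wnt3a, at 0.178 CPM in dHD1/fl line 2 and at 988 CPM in dHD1/- line 2, and was not called (-5.25 ± 1.91, adjusted p 0.121). dHD1/- line 2 thus held keratin 8 RNA at the level of the Cdh1-high lines with Krt18 at 2.11 CPM. Among 9 keratins of basal and stratified epithelia, limma called Krt14 lower under Wnt3a and none under TGFβ, and edgeR called Krt14 and Krt4 lower under Wnt3a. When a line of the dHD1/- pair was left out 4 were called lower under Wnt3a and 1 under TGFβ, and without a line of the dHD1/fl pair, a dHD2/fl line or dHD2/- line 2 none was called. Krt14 was at 10458 and 1328 CPM against 269.8 and 228 CPM (-3.90 ± 0.86, adjusted p 0.0156). Keratin genes have close copies, such as Krt6a and Krt6b, whose unique reads may be split unevenly.

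Some of the regulators and proteases that maintain epithelium were lower in the Cdh1-low lines. Of 26 epithelial transcription and splicing factors tested of 28 listed, 13 were called lower and none higher under Wnt3a, and 5 lower and none higher under TGFβ. The list medians were -3.76 and -1.16, and -4.36 and -1.25 with members at 0 placed at their bound. Without a line of the dHD1/fl pair the counts were 8 under Wnt3a and 3 under TGFβ, without dHD2/- line 2 or 3 the TGFβ count was 3, and without a line of the dHD1/- pair it was 8. Esrp1, the epithelial splicing regulator, was at 299 and 125 CPM in the Cdh1-high lines under Wnt3a and had no read in the Cdh1-low lines, at least 1744-fold lower. In the TGFβ libraries it was at 67.3 and 7.23 CPM against 0 and 0.0360 CPM (-4.54, adjusted p 0.00034).

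St14, encoding the membrane protease matriptase, was at 239 and 122 CPM against 0 and 0.0810 CPM under Wnt3a (-7.37 ± 0.45, adjusted p 1.08e-06) and at 75.2 and 13.6 CPM against 0.0355 and 0 CPM under TGFβ (-5.04, adjusted p 4.18e-05). Spint2, which inhibits matriptase, was at 395 and 152 CPM against 1.35 and 0.121 CPM under Wnt3a (-7.24 ± 0.50, adjusted p 1.83e-06). The protease and its inhibitor were therefore low in the same 2 lines. Grhl2, a transcription factor of epithelial genes, was called under Wnt3a at 144 and 37.7 CPM against 0.107 and 2.31 CPM (-5.29 ± 0.86, adjusted p 0.00209), and its TGFβ difference of -2.70 did not pass (adjusted p 0.164). Of 10 splicing factors listed for EMT, Esrp1, Esrp2 and Rbm47 were called lower under Wnt3a and Esrp1 under TGFβ.

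The low genes of the Cdh1-low lines were in part without reads. Under Wnt3a 30 genes were at no more than 3 reads in both Cdh1-low lines and at 10 CPM or more in both Cdh1-high lines, and 15 of them were members of the gene lists. These were Cdh1, Cldn3, Cldn4, Epcam, Lsr, Marveld2, Marveld3, Elf3, Esrp1, Prss8, Rab25, Spint1, St14, Tmprss2 and Wnt7a. In the opposite direction 3 genes met the same limits. Under TGFβ the counts were 8 and 2.

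In the untreated libraries 6 of 22 transcription factors that drive EMT were at least 2-fold higher in both pairs and 1 was lower, as a description. Of all genes tested 3.81% and 4.52% were. Under either cytokine none was called between the states. The shares called over all genes tested were 2.90% higher and 2.95% lower under Wnt3a, and 0.904% and 0.723% under TGFβ. For 22 members a count of 0 is near these shares and does not show that the states are alike. Of 22 members tested of 24 listed, limma called 0 under Wnt3a and 0 under TGFβ (7 and 2 at an unadjusted p under 0.05), edgeR called none under either, and the list medians were 0.25 and -0.27. Zeb1 was at 5.86 CPM in dHD1/fl line 1, 67.8 CPM in dHD1/- line 1, 224 CPM in dHD1/fl line 2 and 92.2 CPM in dHD1/- line 2 under Wnt3a, a difference of 2.74 ± 0.98 (SE; adjusted p 0.116). Zeb2 was at 0.888 and 12.7 CPM in the Cdh1-high lines and at 49.4 and 22.1 CPM in the Cdh1-low lines (2.75 ± 0.93, adjusted p 0.0971). Neither factor overlapped between the states, and in both dHD1/- line 1 lay nearer to the Cdh1-low lines than dHD1/fl line 1 did.

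Prrx1, a homeobox factor of mesenchyme, was at 0.0317 and 8.39 CPM against 125 and 27.8 CPM under Wnt3a (4.27 ± 1.57, adjusted p 0.125), and Foxf2 was at 2.79 and 6.82 CPM against 54.8 and 21.0 CPM (2.69, adjusted p 0.083). Snai1 was at 57.0 and 19.7 CPM against 63.6 and 62.7 CPM (0.89, adjusted p 0.371), so that dHD1/- line 1 alone was low. Snai2 was at 0.0317 and 3.63 CPM against 9.87 and 8.38 CPM (2.21, adjusted p 0.18), and Twist1 at 20.9 and 21.6 CPM against 48.3 and 40.6 CPM (1.02, adjusted p 0.848). Twist2 was between 16.8 and 31.0 CPM in all 4 lines. For other factors at 1 CPM or more in an untreated dHD1 library, here Foxc1, Foxc2, Foxf1, Glis2, Hmga2, Prrx2, Snai3, Sox4, Sox9, Sox11, Tbx3, Tcf3 and Tcf4, Wnt3a differences ran from -1.74 for Sox11 to 2.19 for Prrx2. Without dHD1/- line 1 or 2, when the dHD1/fl pair alone gave the difference, 4 members of the list were called higher under Wnt3a.

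**Figure D3:**
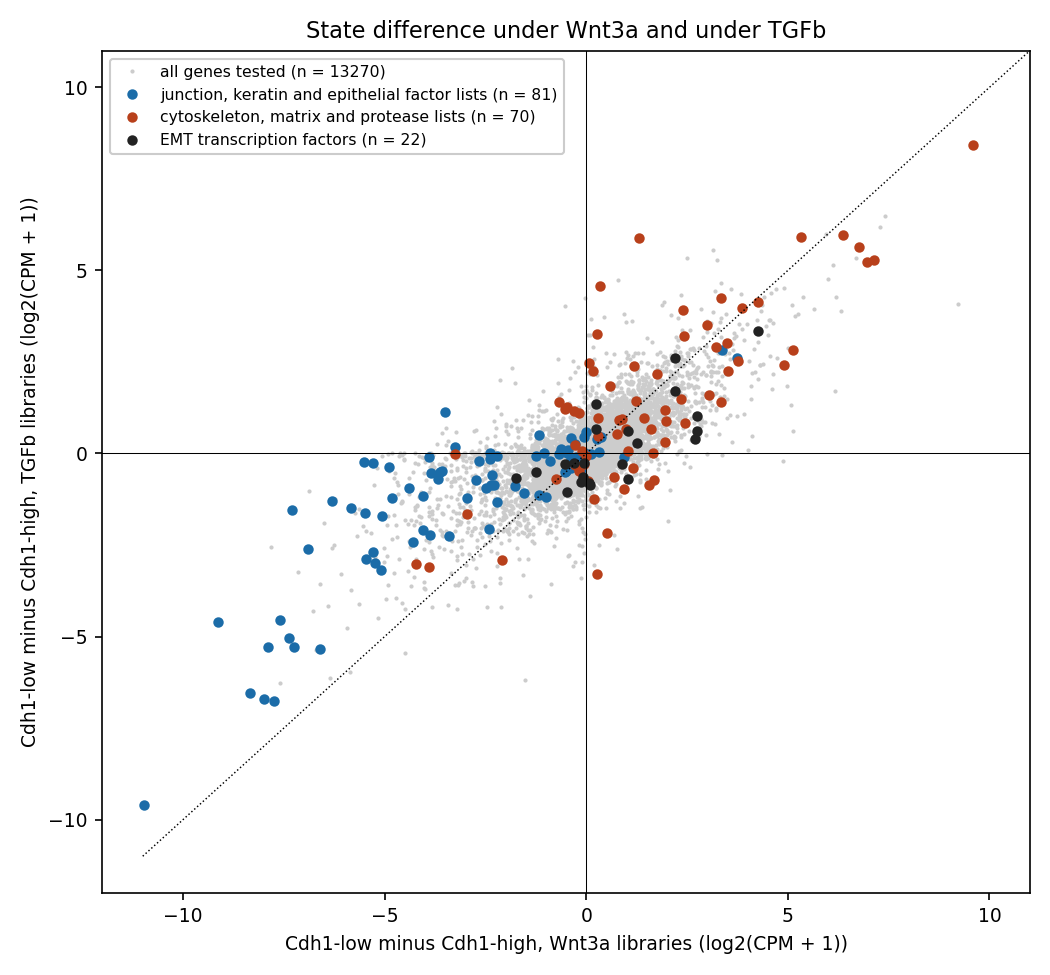
Difference between Cdh1-low and Cdh1-high lines (log2(CPM + 1)) in the Wnt3a libraries (x axis) and the TGFβ libraries (y axis) for the 13270 genes tested, with list members coloured and a dotted line of equal difference. Junction, keratin and epithelial factor genes reach from Krt7 (-10.98 and -9.61) to the origin, many of them nearer to 0 under TGFβ, while Col3a1 (9.60 and 8.42) lies at the upper end of the matrix genes.

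Interstitial collagens were among the genes on the opposite side. Of 28 collagen and matrix genes tested of 29 listed, 4 were called higher and none lower under Wnt3a and 3 higher and none lower under TGFβ, with list medians of 1.44 and 1.84. The shares called higher over all genes tested were 2.90% and 0.904%. When a line of the dHD1/fl pair was left out 2 were called higher and 3 lower under Wnt3a, and 5 higher and 3 lower under TGFβ. Without a line of the dHD1/- pair 7 were higher under Wnt3a and 1 under TGFβ, and without dHD2/- line 1 the Wnt3a count was also 7. The TGFβ count was 6 without a dHD2/fl line and 2 without dHD2/- line 2 or 3. Col3a1 (chromosome 1, 45311538 to 45349706), the α1 chain of type III collagen, was at 0 and 3.43 CPM in the Cdh1-high lines under Wnt3a and at 1564 and 1696 CPM in the Cdh1-low lines, a difference of 9.60 ± 1.38 (SE; adjusted p 0.000849). Under TGFβ it was at 0.378 and 0.119 CPM against 318 and 564 CPM (8.42 ± 1.38, adjusted p 0.00507). Col1a1 and Col1a2, the chains of type I collagen, were called under Wnt3a. Col1a1 was at 11.5 and 15.9 CPM against 1256 and 3294 CPM (7.13 ± 1.44, adjusted p 0.00918), and under TGFβ its difference of 5.29 did not pass (adjusted p 0.104).

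Loxl1, a lysyl oxidase that crosslinks elastin, was at 0.0317 and 13.7 CPM in the Cdh1-high lines and at 15.0 and 80.9 CPM in the Cdh1-low lines under Wnt3a (3.21, adjusted p 0.00938). dHD1/- line 1 and dHD1/fl line 2 were close to each other for this gene, and without a line of the dHD1/fl pair it was not called (2.48, adjusted p 0.161 and 0.159). Emilin1, an elastin-associated glycoprotein, was at 0.380 and 0.419 CPM against 106 and 449.9 CPM under Wnt3a (7.29 ± 1.09, adjusted p 0.0011). Tgfbi, a secreted matrix protein named for its induction by TGFβ, was at 0.159 and 5.03 CPM against 58.7 and 557 CPM (6.11 ± 0.81, adjusted p 0.000433) and under TGFβ at 0.0841 and 4.21 CPM against 13.1 and 509 CPM (5.16, adjusted p 0.00382). Antxr1, a collagen-binding anthrax toxin receptor, was at 0.0634 and 1.43 CPM against 118 and 230.4 CPM under Wnt3a (6.69 ± 0.47, adjusted p 2e-06).

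Not every matrix gene separated the states. Lox (lysyl oxidase) was at 4.50 and 705 CPM in the Cdh1-high lines and at 2013 and 0.283 CPM in the Cdh1-low lines under Wnt3a, high in dHD1/- line 1 and dHD1/fl line 2. Col4a1, a chain of basement membrane collagen, had 61.5 and 439 CPM against 117 and 0.0405 CPM and was missing from dHD1/- line 2 alone. Fn1 (fibronectin) was between 3131 and 16106 CPM in the 4 lines under Wnt3a and between 25484 and 46938 CPM under TGFβ.

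Of 20 matrix proteases and inhibitors tested of 21 listed, 2 were called higher under Wnt3a and 1 under TGFβ, and without dHD2/- line 1 these counts were 5 and 2, with 2 lower under each. Of all genes tested 2.90% were called higher under Wnt3a and 0.904% under TGFβ, so that 1 call in this list or the next is near the background. Mmp2, the gelatinase A gene, was at 0.412 and 2.87 CPM against 7.42 and 40.4 CPM under Wnt3a (3.00 ± 0.56, adjusted p 0.00602) and at 1.93 and 0.159 CPM against 9.66 and 41.0 CPM under TGFβ (3.52, adjusted p 0.0044). Of 22 mesenchymal cytoskeleton and adhesion genes tested of 24 listed, 2 were called higher under Wnt3a and 3 under TGFβ, with none lower. Leaving out 1 line moved the latter counts between 1 (without a dHD1/fl line or dHD2/- line 2 or 3, among others) and 6 (without dHD2/- line 1) under Wnt3a, and between 1 (without a dHD2/fl line or dHD2/- line 2 or 3) and 5 (without a dHD1/- line) under TGFβ. Itga11, the α11 subunit of a collagen-binding integrin, was at 0 and 0.175 CPM against 6.14 and 16.2 CPM under Wnt3a (3.35 ± 0.49, adjusted p 0.000907), and at 0.547 and 0.159 CPM against 38.1 and 15.7 CPM under TGFβ (4.26, adjusted p 0.000298). Acta2 and Tagln, markers of smooth muscle and myofibroblasts, were called under TGFβ, but 1 line carried most of their level. Acta2 was at 6.10 and 0.675 CPM in the Cdh1-high lines, 27.7 CPM in dHD1/fl line 2 and 1437 CPM in dHD1/- line 2 (5.88, adjusted p 0.0124), and Tagln had 4.12 and 0.199 CPM against 8.20 and 371 CPM.

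edgeR called none of the 28 matrix genes and none of the 20 proteases and inhibitors under either cytokine (9 and 9, and 5 and 2, at an unadjusted limma p under 0.05), and 1 of the 22 cytoskeleton genes under Wnt3a and none under TGFβ. By edgeR the adjusted p of Col3a1 was 0.0737 under Wnt3a and 0.178 under TGFβ, while Itga11, C1qtnf6, Emilin1 and Antxr1 were called under Wnt3a by both tools.

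Some fibroblast markers were higher in the Cdh1-low lines as well. Of 16 markers listed 7 were tested, of which limma called 2 higher under Wnt3a (Ogn and Mfap5) and 1 under TGFβ (Ogn). The shares called higher over all genes tested were 2.90% and 0.904%. edgeR called none of the 7 (for Ogn, adjusted p 0.171 and 0.299). By limma 4 were higher under Wnt3a without a line of the dHD1/- pair, 1 without a dHD1/fl or dHD2/fl line or dHD2/- line 2 or 3, and 3 under TGFβ without a dHD1/fl line. The summed level of the 16 markers was 49.2 and 231 CPM in the untreated Cdh1-high lines and 1259.5 and 1288.5 CPM in the Cdh1-low lines. Under Wnt3a it was 28.1 and 269 CPM against 1242 and 804.5 CPM, and under TGFβ 76.5 and 51.0 CPM against 667 and 226 CPM. Pdgfra and Pdgfrb, receptors for platelet-derived growth factor, made up most of the sum, with Pdgfra at 441 and 369 CPM and Pdgfrb at 732 and 366 CPM in the Cdh1-low lines under Wnt3a. Lum, which marks most fibroblasts, had no read in any untreated or Wnt3a library of the 4 lines. The sum of 19 leukocyte, endothelial, mural and fat cell markers was 25.1 and 14.0 CPM in the untreated Cdh1-high lines and 22.9 and 172 CPM in the Cdh1-low lines, of which Csf1r was 165 CPM in dHD1/- line 2, where the leukocyte gene Ptprc had no read. The part of other cell types in the matrix result was not tested.

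Genes called under both cytokines were ranked by the smaller of their 2 differences, and the 6 highest were Col3a1, C1qtnf6, Emilin1, Prune2, Antxr1 and Tgfbi. C1qtnf6, a secreted member of the C1q and TNF family, was at 0.0634 and 0.874 CPM against 174 and 331 CPM under Wnt3a (7.42 ± 0.80, adjusted p 7.75e-05). Prune2 was at 0.0317 and 0.944 CPM against 169 and 88.7 CPM (6.45 ± 0.81, adjusted p 0.000296). The 6 lowest were Krt7, Lad1, Cldn4, Krt18, Mab21l4 and Fermt1. By edgeR the TGFβ call ended for Col3a1, C1qtnf6, Emilin1, Prune2 and Tgfbi (adjusted p 0.113 to 0.212) and for Krt7, Cldn4 and Krt18 (adjusted p 0.132 to 0.206), while Antxr1, Lad1, Mab21l4 and Fermt1 were called by both tools.

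Lad1, encoding the basement membrane protein ladinin, was at 697 and 124 CPM against 0.391 and 0.283 CPM under Wnt3a (-7.79 ± 0.43, adjusted p 4.27e-07). Mab21l4 was at 817 and 69.2 CPM against 0.533 and 0 CPM (-7.60 ± 0.77, adjusted p 4.42e-05). Fermt1, encoding the epithelial integrin activator kindlin 1, was at 131 and 100.3 CPM against 1.03 and 0 CPM under Wnt3a (-6.35 ± 0.39, adjusted p 1.08e-06). Under TGFβ Fermt1 was at 340.0 and 436 CPM against 10.2 and 1.76 CPM (-6.12 ± 0.39, adjusted p 2.85e-06), and each of the 4 lines had more Fermt1 than with Wnt3a. Some TGFβ calls depended on single lines. Of the 9 fits that each left out 1 line, 7 ended the TGFβ call of Krt7, 6 that of Sfrp1, 5 that of Krt18, and 4 those of Emilin1 and Loxl1. Without a line of the dHD1/- pair, Col3a1 (adjusted p 0.0663 and 0.0657), Emilin1, Loxl1, Tgfbi, Wnt7b, Sfrp1 and Krt7 were among the genes not called under TGFβ, and without a line of the dHD1/fl pair Krt7, Krt18 and Erbb3 were among those not called. In such a fit the remaining pair is assumed to vary like the other groups.

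The alleles that define the genotypes are in Bcl9 and Bcl9l, and neither was called between the states. Bcl9 was at 104 and 40.1 CPM in the Cdh1-high lines and at 80.1 and 48.1 CPM in the Cdh1-low lines under Wnt3a (-0.06 ± 0.27, adjusted p 0.94). Bcl9l was at 155 and 346 CPM against 268 and 144 CPM (-0.24 ± 0.44, adjusted p 0.817). These gene totals do not tell the alleles of a line apart. Of 14 genes of the Bcl9, Pygopus and β-catenin complex, Pygo1 was called higher under both cytokines. The shares called higher over all genes tested were 2.90% under Wnt3a and 0.904% under TGFβ. Pygo1 encodes a Pygopus protein, the partner that binds the HD1 domain, and it was at 0 and 0.140 CPM against 3.84 and 3.20 CPM under Wnt3a (2.08 ± 0.23, adjusted p 7.82e-05) and at 0.0841 and 0.119 CPM against 4.62 and 2.99 CPM under TGFβ (2.10, adjusted p 0.000172). edgeR did not call Pygo1 (adjusted p 0.0900 under Wnt3a and 0.237 under TGFβ). In the treated dHD1 libraries Pygo1 reached the filter limit of 1 CPM only in the Cdh1-low lines, so it may have been admitted through the side where it was high. Of this list edgeR called 1 gene lower under both cytokines, the corepressor gene Tle4, named after its values were seen. Tle4 had no read in the Cdh1-low lines and was at 0.0317 and 5.49 CPM in the Cdh1-high lines under Wnt3a, so that 1 line carried its level.

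A few ligands and antagonists of the Wnt pathway were also among the calls. Of 31 Wnt pathway genes tested of 38 listed, 3 were called lower and 1 higher under Wnt3a, and 2 lower under TGFβ. Of all genes tested 2.90% were called higher and 2.95% lower under Wnt3a, and 0.904% and 0.723% under TGFβ. A single call in this list or the next is thus near the background. Leaving out a line of the dHD1/- pair gave 1 lower and 6 higher under Wnt3a and none lower under TGFβ, while the other lines left out gave 2 to 4 lower and 0 to 2 higher under Wnt3a and 1 to 3 lower under TGFβ. edgeR called Wnt7b alone, under Wnt3a. Wnt7b, a ligand, was at 1100.2 and 188 CPM against 12.3 and 0.283 CPM under Wnt3a (-6.79 ± 0.67, adjusted p 3.92e-05), and under TGFβ at 635 and 257 CPM against 82.4 and 4.10 CPM (-4.30, adjusted p 0.00374). Sfrp1, a secreted Wnt antagonist, was at 116 and 77.3 CPM against 18.5 and 0.121 CPM (-4.36 ± 0.83, adjusted p 0.00636), a call that ended without a line of the dHD1/- pair (-2.58, adjusted p 0.076 and 0.0758). Of 34 genes of TGFβ and BMP signalling, Tgfbi, Bmp2 and Tgfbr2 were called higher under Wnt3a and Tgfbi under TGFβ by limma, and none by edgeR (for Tgfbi, adjusted p 0.0617 and 0.179). Leave-outs of a dHD1/- line gave 6 higher and 2 lower under Wnt3a, and 1 higher and 2 lower under TGFβ. Leave-outs of a dHD1/fl line gave 2 higher and 1 lower under Wnt3a and 4 higher under TGFβ, without dHD2/- line 1 the counts were 4 higher and 1 lower under Wnt3a and 2 higher and 1 lower under TGFβ, and without any other line 2 were higher under Wnt3a. Tgfbr2, the type II TGFβ receptor, was at 187 and 587 CPM against 784 and 807 CPM (1.26 ± 0.34, adjusted p 0.0421).

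Of 25 growth factor receptors and ligands, 3 were called lower and 1 higher under Wnt3a, and 1 lower and 1 higher under TGFβ. Over all genes tested 2.90% were called higher and 2.95% lower under Wnt3a, and 0.904% and 0.723% under TGFβ, so that 1 call in such a list is near the background. Erbb3, a neuregulin receptor of luminal epithelium, was at 210.3 and 48.3 CPM against 0.320 and 0.243 CPM under Wnt3a (-6.32 ± 0.57, adjusted p 1.8e-05) and at 15.2 and 2.10 CPM against 0.320 and 0.0720 CPM under TGFβ (-2.58, adjusted p 0.0359). The TGFβ call of Erbb3 ended without a line of the dHD1/fl pair (-1.53, adjusted p 0.196 and 0.195), without a dHD2/fl line (adjusted p 0.0826 and 0.0827) and without dHD2/- line 2 or 3 (adjusted p 0.127 and 0.124). Of 19 luminal mammary markers tested of 25 listed, 3 were called lower under Wnt3a (Krt18, Erbb3 and Ly6d) and 2 under TGFβ. Of 16 myoepithelial and basal markers tested of 18 listed, 1 was called lower under Wnt3a, and 1 higher and 1 lower under TGFβ (Acta2 and Itgb4). Trp63, encoding the basal transcription factor p63 and a member of the epithelial factor list too, had levels in the other direction from Krt14, with 8.21 and 6.54 CPM in the Cdh1-high lines and 172 and 42.3 CPM in the Cdh1-low lines under Wnt3a (3.38 ± 1.62, adjusted p 0.239).

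The next comparison asked whether the distance between the states differed between TGFβ and Wnt3a. Without a block, 3 genes were called for this difference (0.0226% of genes tested), namely Adamts16, Rxfp3 and Helt. With the cell line as a block, which sets each TGFβ library against the Wnt3a library of its own line, 184 genes (1.39%) had a more positive difference under TGFβ and 48 (0.362%) a more negative one. The blocked calls included 12 of 26 epithelial factors, 8 of 22 tight junction genes and 4 of 14 desmosome genes, all more positive under TGFβ. Cdh1 shifted by 4.52 ± 0.91 (SE; limma adjusted p 0.0402 with the block, 0.287 without it), Erbb3 by 3.74 ± 0.17 (adjusted p 2.2e-05 with the block, 0.179 without) and Grhl2 by 2.59 ± 0.24 (adjusted p 0.0011 with the block, 1 without). Cytokine and length of treatment (4 days against 3) cannot be told apart in this comparison.

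**Figure D4:**
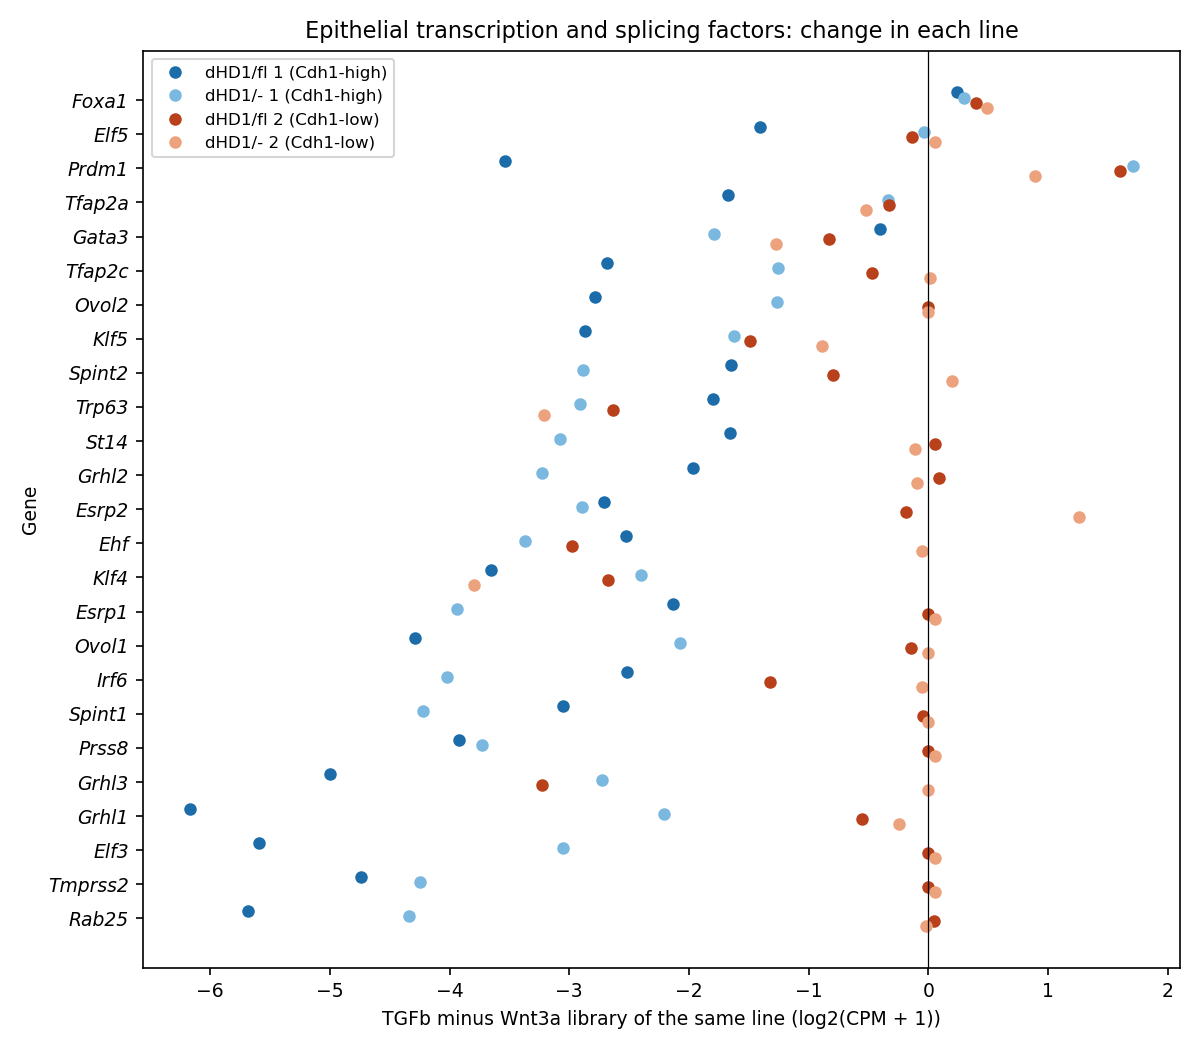
TGFβ minus Wnt3a library of the same line (log2(CPM + 1)) for 25 of the 26 epithelial transcription and splicing factors tested, 1 point for each line. Most points of the Cdh1-high lines lie left of -1, with medians over the 26 factors of -2.75 and -2.89, and most points of the Cdh1-low lines lie near 0, with medians of -0.17 and 0.

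Line by line, most of the change lay in the Cdh1-high lines. Among the 26 epithelial factors 24 were at least 2-fold lower under TGFβ than under Wnt3a in dHD1/fl line 1 and 22 in dHD1/- line 1, with median changes of -2.75 and -2.89. Of all 13270 genes tested, 1453 and 1784 were as much lower in these lines, and 736 and 1087 in dHD1/fl line 2 and dHD1/- line 2. Among the factors the Cdh1-low lines gave counts of 7 and 3, with medians of -0.17 and 0, and over all genes tested the 4 medians were 0.03, -0.16, -0.03 and -0.15 in the order of both line 1 libraries and both line 2 libraries. Many of the factors were already near 0 in the Cdh1-low lines, where a further fall could not be seen at this depth. Some others fell there too, such as Klf4 (-2.67 and -3.79) and Trp63 (-2.63 and -3.21) in dHD1/fl line 2 and dHD1/- line 2. In each of these lines 1 factor rose at least 2-fold. Among 22 tight junction genes 12 and 10 were at least 2-fold lower in the Cdh1-high lines and 1 and 0 in the Cdh1-low lines. Under TGFβ the Cdh1-high lines differed from each other, since dHD1/- line 1 had 4.29 CPM of Cdh1 and dHD1/fl line 1 had 148 CPM.

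The 3 genes called without the block were all low. In the treated dHD1 libraries Rxfp3 reached the filter limit of 1 CPM only in the Cdh1-low lines under TGFβ, and Helt only in those under Wnt3a. The filter may thus have admitted them through the group tested. Adamts16, a secreted metalloprotease, was at 11.8 and 8.75 CPM in the Cdh1-low lines under TGFβ and at 0.925 and 1.39 CPM in the Cdh1-high lines, while all 4 Wnt3a libraries were under 0.4 CPM. Rxfp3, a relaxin family receptor, was at 3.41 and 3.92 CPM in the Cdh1-low lines under TGFβ and at no more than 0.142 CPM elsewhere in these libraries. Helt, a basic helix-loop-helix repressor, was at 2.24 and 3.28 CPM in the Cdh1-low lines under Wnt3a and had no read in the Cdh1-high lines, at least 26.3-fold higher, and under TGFβ it was at 0.0710 and 0.144 CPM in the Cdh1-low lines. With edgeR and with a pseudocount of 0.1 no gene was called for this difference (313 and 452 at an unadjusted p under 0.05).

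Against the dHD2 lines under Wnt3a, the Cdh1-low side stood farther apart. The Cdh1-low lines had 797 genes called higher (6.01%) and 730 lower (5.50%) than the 5 dHD2 lines, and the Cdh1-high lines had 54 higher (0.407%) and 42 lower (0.317%). For 22 tight junction genes the median was -3.82 in the Cdh1-low lines and -0.48 in the Cdh1-high lines, for 26 epithelial factors -4.19 and -0.57, and for 28 matrix genes 2.24 and 0.04. Of the tight junction genes 14 were called lower in the Cdh1-low lines and none in the Cdh1-high lines, and of the epithelial factors 17 and 1. In the Cdh1-high lines leaving out 1 line gave up to 3 tight junction genes lower and 3 higher (both without dHD2/- line 1) and up to 4 epithelial factors lower (without dHD1/fl line 1), and in the Cdh1-low lines it gave 10 to 16 and 13 to 18 lower. Both comparisons share the dHD2 libraries. In each of them the lines also differ in genotype, which cannot be told apart there from state. The count for the Cdh1-high lines moved between 3 without dHD2/- line 3 and 1140 without dHD1/- line 1, and the count for the Cdh1-low lines between 993 without dHD2/- line 2 and 2270 without dHD2/- line 1.

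**Figure D5:**
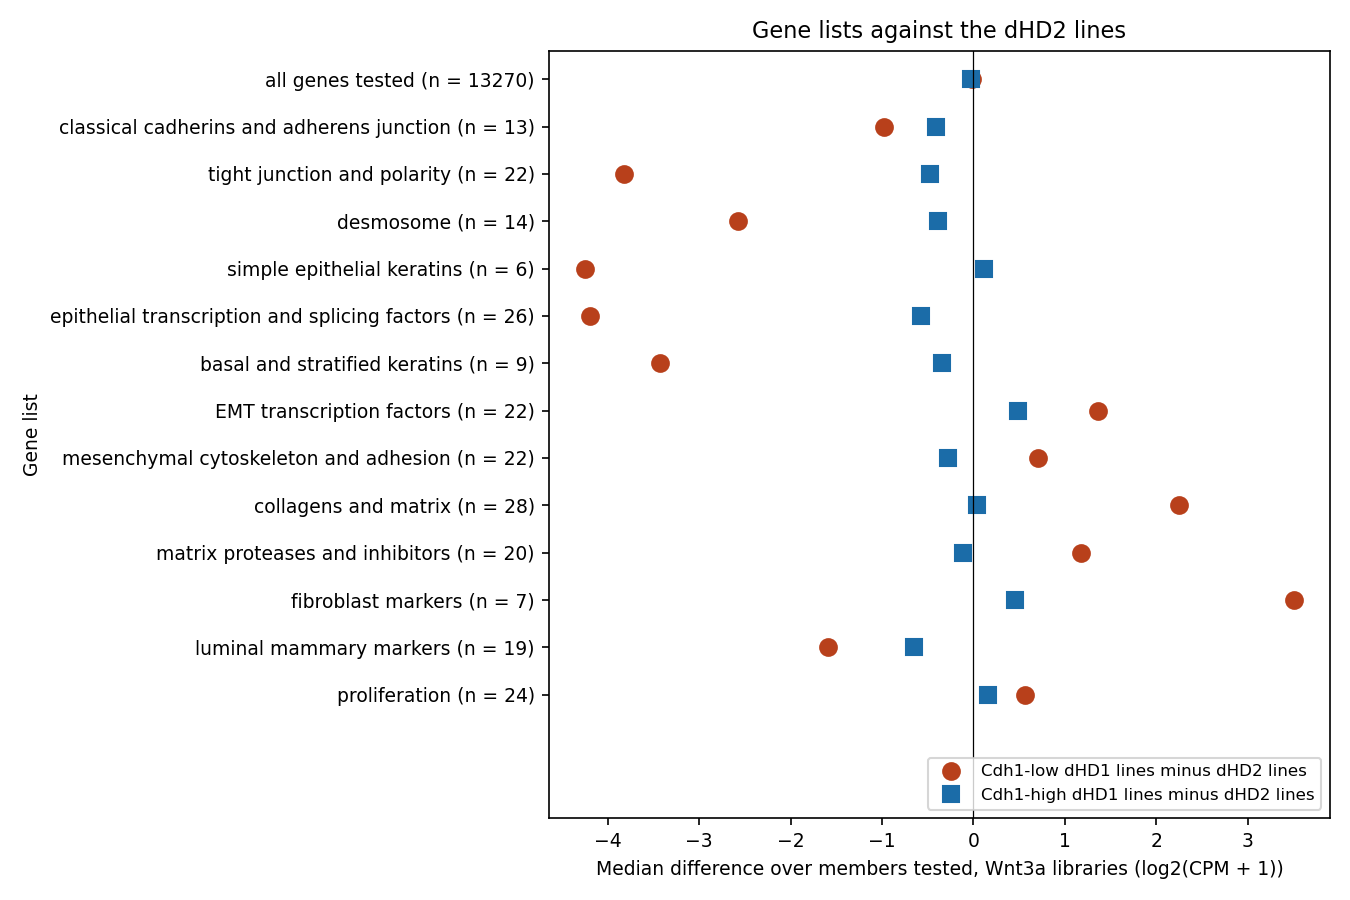
Median difference from the dHD2 lines (log2(CPM + 1), Wnt3a libraries) over the tested members of 13 gene lists and over all genes tested, circles for the Cdh1-low and squares for the Cdh1-high dHD1 lines. The squares lie between -0.65 and 0.49, while the circles reach -4.25 for simple keratins and 3.51 for fibroblast markers. Not all lists are drawn, and that of interferon response and antigen presentation had medians of 0.80 (Cdh1-low) and 0.76 (Cdh1-high).

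EMT transcription factors were also set against the dHD2 lines, and whether this contrast differs from that between the states was not tested. Of 22 tested, 8 were called higher and 3 lower in the Cdh1-low lines, and 1 higher in the Cdh1-high lines. Without dHD1/fl line 2 the Cdh1-low count was 1 higher and 2 lower, without dHD1/- line 2 it was 6 higher and 1 lower, without dHD2/fl line 2 or dHD2/- line 2 or 3 it was 4, 4 and 5 higher, and edgeR called 6 higher and 3 lower. The Cdh1-high count ranged from 0 to 3 when 1 line was left out, with 3 without dHD2/- line 1, and edgeR called none. Zeb1 was higher by 4.24 ± 0.83 (SE; limma adjusted p 0.00314), Zeb2 by 2.90 ± 0.78 (adjusted p 0.0226), Prrx1 by 4.59 ± 1.32 (adjusted p 0.0308) and Snai1 by 1.86 ± 0.46 (adjusted p 0.0145) in the Cdh1-low lines. Prrx2, Foxf2, Glis2 and Twist2 completed the 8, and Sox4, Sox9 and Sox11 were lower. Twist2 was also the factor called higher in the Cdh1-high lines, by 3.25 (adjusted p 0.0365) against 3.51 in the Cdh1-low lines. For the other factors the Cdh1-high lines gave smaller values, such as 1.51 (adjusted p 0.394) for Zeb1.

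The state difference was last set beside the response to TGFβ in the dHD2 lines, which share no library with the Wnt3a contrast. Both were nevertheless taken from 1 fit and share the error of each gene, so their calls are not independent. In the 5 dHD2 lines TGFβ raised 137 genes (1.03%) and lowered 274 (2.06%) relative to no cytokine. Median-of-ratios scaling gave 174 raised and 192 lowered, so that the excess of lowered genes nearly ended. Blocking on the line gave 342 and 649, and leaving out 1 dHD2 line moved the sum of both, 411, between 85 (without dHD2/fl line 2) and 669 (without dHD2/- line 1), with 122 to 131 without one of the others. Of the 392 genes lower in the Cdh1-low lines under Wnt3a, 49 (12.5%) also fell with TGFβ in dHD2 lines, which is 17.9% of the 274, and 7 rose. Of the 385 genes higher in the Cdh1-low lines, 17 (4.42%) rose with TGFβ in dHD2 lines, which is 12.4% of the 137, and 16 fell. The overlap was not seen for genes called under TGFβ, whose contrast also shares no library with it. Of the 96 genes lower in the Cdh1-low lines under TGFβ 3 (3.12%) fell in dHD2 lines and 2 rose, and of the 120 higher genes 12 (10.0%) fell and 3 (2.50%) rose. Of genes called under both cytokines, 3 of the 78 lower genes (3.85%) fell and 2 rose, and 10 of the 79 higher genes (12.7%) fell and 3 (3.80%) rose. Across the 13270 genes, which are not independent replicates, the correlation of the dHD2 response with the Wnt3a difference was 0.176. Over the alternative settings the share of the genes lower in the Cdh1-low lines that fell with TGFβ ran from 3.57% without dHD2/fl line 1, where 0.512% of all genes tested fell, to 24.2% with cell line as a random effect, where 4.81% fell. The share of the genes higher in the Cdh1-low lines that rose ran from 0.448% (1 gene) without dHD2/- line 3, where 0.332% of all genes tested rose, to 9.48% with the random effect, where 2.49% rose. It was also 1 gene, 0.518%, without dHD2/- line 2.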

How the data were processed

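RNA of 27 libraries of mouse tumour cell lines was measured by RNA-sequencing. Per the labels and the study's methods the authors prepared stranded poly(A) libraries, mapped single-end reads with STAR against mm10, retained those with 1 location, and used QuasR to count read starts within RefSeq exons. The strand setting of the counting is not given in the sources used here. The deposited values are CPM, reads of a gene scaled to 1e6 reads assigned to genes, without further scaling by the authors. All values (100%, within 0.05 reads) were whole multiples of 1 read, so reads were recovered. Of 24454 gene identifiers 80 matched no symbol and stayed without a name.

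log2(CPM + 1) of the 13270 genes at 1 CPM or more in at least 2 libraries was fitted with limma 3.58.1 in R 4.3.3 (trend and robust). The fit held 23 libraries, leaving out the 4 untreated dHD1 libraries that chose the lines, with a mean for each genotype and treatment and a Cdh1-low term for each cytokine in the dHD1 lines. Alternatives changed the pseudocount to 0.1, dropped the filter, scaled by median of ratios, kept only dHD1 libraries, took cell line as a block or, with statmod 1.5.0, as a random effect, or used edgeR 4.0.16 on recovered reads (451 genes called under Wnt3a and 109 under TGFβ). Each line was also left out in turn. P-values of the main fit measure the spread within groups of 1 genotype and treatment, pooled over the dHD1 and dHD2 groups. They are not set by the dHD1 lines alone. The main fit takes libraries of the same line as independent, although the random effect gave them a correlation of 0.596.

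Replicate numbers stand for cell lines, and the Wnt3a and TGFβ libraries of 1 line departed alike from the mean of their groups (correlations over genes of 0.509 to 0.703), so the block pairs libraries of the same line. The lines and gene lists were chosen with earlier results of these data known. Named were Cdh1, Vim, Bcl9, Bcl9l, EMT transcription factors at 1 CPM or more in an untreated dHD1 library, up to 4 members of each list called under both cytokines, the 6 highest and 6 lowest genes called under both, and genes called for the difference between cytokines. Other genes, among them Nectin4, Cdh2, Ocln, Cldn3, Cldn7, Evpl, Krt8, Krt14, Grhl2, Col1a1, Lox, Col4a1, Fn1, Acta2, Tagln, Pdgfra, Pdgfrb, Csf1r, Tgfbr2 and Trp63, were singled out after their values were seen. Some genes that the rule names are not reported here. Promoters come from RefSeq (GRCm38.p6), where the table had no entry for Cdh1. The tests were tried on simulated data.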

Additional observations from a re-analysis of the deposited data

Results flagged for a closer look

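The gap between Cdh1-low and Cdh1-high lines differed between the TGFβ and Wnt3a libraries for 3 genes in limma's interaction test without a block. Adamts16 shifted by 2.30 ± 0.32 (SE; limma adjusted p 0.0277), Rxfp3 by 2.07 ± 0.27 (adjusted p 0.0277) and Helt by -1.75 ± 0.24 (adjusted p 0.0277). All 3 were also called with the cell line as a block. Their levels were under 12 CPM in every dHD1 library, and none of the 3 was called by edgeR or with a pseudocount of 0.1. In the treated dHD1 libraries Rxfp3 and Helt reached the filter limit of 1 CPM only in the group where each was high. The filter may thus have admitted them through the group tested, so their p-values are no independent support.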

How the results depend on the processing

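No named gene that was called changed direction under the alternatives run, while genes that were not called, such as Foxc2, Hmga2 and Bcl9l, changed sign under some. With the dHD1 libraries alone limma called 0 genes under Wnt3a, 0 under TGFβ and 0 for the difference between cytokines (1284, 640 and 190 at an unadjusted p under 0.05), a fit with 2 residual degrees of freedom. edgeR on recovered reads called 451 genes under Wnt3a (94 higher) against 777 by limma (385 higher), 109 under TGFβ (9 higher) against 216 (120 higher), 0 for the difference between cytokines (313 at an unadjusted p under 0.05) and 40 for Cdh1-high against dHD2 lines. With a pseudocount of 0.1 the split was 307 higher and 453 lower under Wnt3a and 66 higher and 113 lower under TGFβ, with 0 genes for the difference between cytokines (452 at an unadjusted p under 0.05) and 42 for Cdh1-high against dHD2 lines. Without the filter 13 genes, and with cell line as a random effect 177, were called for the difference between cytokines, and the random effect gave 60 for Cdh1-high against dHD2 lines. The replicate block gave 232 genes for that difference against 3 without it. The TGFβ split thus turned from mostly higher to mostly lower with edgeR and with a pseudocount of 0.1, and to 188 higher and 205 lower without dHD2/- line 1. The causes of these shifts were not tested.

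Leaving out 1 line moved the counts between 425 and 1883 under Wnt3a, 107 and 757 under TGFβ, 0 and 152 for the difference between cytokines, 993 and 2270 for Cdh1-low against dHD2 lines, and 3 and 1140 for Cdh1-high against dHD2 lines. Without a dHD2/fl line or dHD2/- line 2 or 3 the difference between cytokines had 0 calls (350 to 471 at an unadjusted p under 0.05). Of the 30 named genes called under Wnt3a and 31 under TGFβ, edgeR kept 21 and 14, and the dHD1 libraries alone kept 0. Depth limits what can be said of genes at or under 3 reads, and 2 lines on each side limit every contrast. With 1 line left out, tight junction genes called lower under Wnt3a ranged from 8 to 16, epithelial factors from 8 to 18 and desmosome genes from 4 to 8. Luminal markers called lower ranged from 2 to 4 under Wnt3a and from 0 to 3 under TGFβ, myoepithelial markers from 0 to 3 and from 0 to 4, and growth factor receptors and ligands from 2 to 3 and from 0 to 1. The TGFβ response of the dHD2 lines, 411 genes, became 991 with the block and 969 with the random effect. Alternatives for list counts, also against the dHD2 lines, and for the TGFβ response of the dHD2 lines were added after seeing the data.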

Other observations

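Of 24 proliferation genes limma called 0 under Wnt3a and 0 under TGFβ, with medians of 0.47 and 0.92 (2 and 5 at an unadjusted p under 0.05, and none by edgeR), but without a line of the dHD1/- pair 2 were called higher under Wnt3a and 7 under TGFβ. Of these genes 18 in dHD1/fl line 1 and 12 in dHD1/- line 2 were at least 2-fold lower under TGFβ than under Wnt3a, against 1 in dHD1/- line 1 and 0 in dHD1/fl line 2. Of 26 interferon and antigen presentation genes tested, 1 was called higher and 1 lower under Wnt3a (2.90% and 2.95% of all genes tested were) and none by edgeR. Leaving out a line of the dHD1/- pair gave 4 higher and 3 lower under Wnt3a and 4 lower under TGFβ. Psmb9, an immunoproteasome subunit, was the one higher, at 0.634 and 8.04 CPM in the Cdh1-high lines and 17.4 and 18.3 CPM in the Cdh1-low lines (2.29 ± 0.49, limma adjusted p 0.0132). Of 22 chemokine, cytokine and secretory defence genes tested, Lcn2 was called lower under Wnt3a and Cxcl5 higher under TGFβ (over all genes tested 2.95% and 0.904%), and without a line of the dHD1/- pair 5 were higher and 2 lower under Wnt3a and 3 higher under TGFβ. None of 18 cell cycle inhibitors and p53 targets was called by limma (2 under Wnt3a and 3 under TGFβ at an unadjusted p under 0.05), while edgeR called 2 lower under each cytokine. None of 8 housekeeping genes was called by limma or edgeR (1 under each cytokine at an unadjusted p under 0.05), but without a line of the dHD1/fl pair 2 were called lower under TGFβ, Rplp0 and Eef1a1, named after their values were seen. Of the 7 leukocyte, endothelial, mural and fat cell markers tested none was called or reached an unadjusted p under 0.05.

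Several genes had a level in 1 dHD1 line that differed from the other 3 without following the states. Axl, a receptor tyrosine kinase, was at 12.7 CPM in untreated dHD1/fl line 1 and at 1464, 943 and 1265 CPM in dHD1/- line 1, dHD1/fl line 2 and dHD1/- line 2. Cdkn2a, the Ink4a/Arf tumour suppressor gene, was at 27.9 CPM in dHD1/fl line 1 and had no read in the other 3. Xist was at 59.5, 319 and 817 CPM in dHD1/fl line 1, dHD1/- line 1 and dHD1/fl line 2 and at 0.119 CPM in dHD1/- line 2. These genes were singled out after their values were seen.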
